A study of Mus musculus with 6 samples.

Results

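The comparison described here set all 4 libraries from mice with a Tcf1 mutation, as one side, against the 2 control libraries of the same study, which together are all 6 of its libraries. RNA was sequenced from mouse thymocytes at the DN3 stage, sorted as CD4-, CD8-, CD44 low and CD25 high. The 2 control libraries carry the genotype label wild type. On the mutant side, 2 libraries are labelled p45-/- and are called p45-deficient here, and 2 are labelled Lck-cre+ Tcf1 fl/fl and are called Tcf1-deficient here. The first label names the long (p45) isoforms and no Cre. In the second genotype, the Lck-driven Cre recombinase removes the floxed gene only in cells of the T lineage, so the mutants differ in where and when the protein is lost as well as in which isoforms are lost. The labels give neither age nor strain, and they do not say whether the controls carried the Cre transgene or whether the paired libraries of a genotype stem from different animals. All p-values here therefore rest on the spread between libraries alone, and that spread may be technical. The main question was which genes lie on the same side of both controls in all 4 mutant libraries, and 2704 of the 12939 genes with enough counts to be tested did so.

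Tcf1, the product of Tcf7, is a DNA-binding protein of the HMG-box family that acts in early T cell development. Its long isoforms carry an amino-terminal domain that binds beta-catenin, the effector of canonical Wnt signalling, while the short isoforms lack it; both kinds bind DNA and can recruit Groucho/TLE corepressors. DN3 thymocytes have committed to the T lineage, have shut off much of the progenitor programme, and rearrange the T cell receptor beta locus before the checkpoint called beta-selection, whose passage depends on the pre-T cell receptor and on Notch signals.

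The libraries held between 19640524 and 28107031 counts, and 3 counts in 1 library corresponded to 0.11 to 0.145 CPM (counts scaled to library size). Replicates differed beyond counting noise in all 3 groups: chi-square divided by its degrees of freedom was 31.9 for the controls, 8.53 for the p45-deficient pair and 62.5 for the Tcf1-deficient pair. Tcf1-deficient replicate 1 stood apart from its partner, and results that lean on it are marked as such. It also held 372 CPM of Cd4, a coreceptor against which the cells were sorted, while the other 5 libraries held 46.1 to 86.5 CPM. Ddx3y, a Y-linked gene, had 1462 to 2803 counts in the 6 libraries, and Xist had 4 to 13.

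Tcf7 itself, read first, did not lie on one side. The controls held 2088 and 1810.1 CPM, p45-deficient cells 2339.6 and 2414 CPM, and Tcf1-deficient cells 979 and 976 CPM. The p45-deficient pair was thus the highest and the Tcf1-deficient pair the lowest, with the controls between them. Both Tcf1-deficient libraries were thus lower than both controls, as their label reads, but a large part of the counts remained. Counts per gene include all isoforms and any exons outside the deleted part, so they do not show how complete the loss was, and they do not check the label of the p45-deficient libraries.

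Pooling the mutants as one side gave no called gene. With 1 mean per side, edgeR's quasi-likelihood test passed 0 of 12939 genes (0%) at an adjusted p below 0.05. Without adjustment, 1025 genes had p below 0.05, 560 of them higher and 465 lower in the mutants. The smallest adjusted p was 0.512, shared by 29 genes. DESeq2, run as an alternative on the same grouping, called 67 genes higher and 36 lower. In the pooled model the difference between the 2 mutant genotypes counts as error, and the common coefficient of biological variation came to 32.3%, against 21.5% in a model with 1 mean per genotype. In that 3-group model, the contrast of the mean of the 2 mutant genotypes with control called 134 genes higher (1.04%) and 220 lower (1.7%). Of the 354 called genes, 52 had mutant libraries that overlapped a control. Where all 4 mutant libraries lay above both controls, the p45-deficient mean was the farther one for 107 of 109 called genes. Where all 4 lay below, it was the farther one for 183 of 193. Such a call can thus rest on 1 genotype alone or chiefly. Both controls were needed for it, since leaving out either control replicate 1 or control replicate 2 left 0 calls in both directions. It moved the other way without a Tcf1-deficient library, with 584 higher and 635 lower without replicate 1 and 958 higher and 819 lower without replicate 2, and fell to 16 and 30 without p45-deficient replicate 1 and to 24 and 39 without p45-deficient replicate 2. For a single gene, an exact permutation test of 4 libraries against 2 cannot go below a two-sided p of 0.0667, so no such test can pass.

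All 4 mutant libraries lay above both controls for 1293 genes (9.99% of those tested) and below both for 1411 (10.9%). These genes were picked by their measured values, so their counts and levels are a description. Tests of mutants against control given for them use the same libraries and are no separate support. The gap, meaning the log2 distance between the nearest mutant and the nearest control library, was at least 1.5-fold for 88 genes above and 153 below, and at least 2-fold for 36 above and 55 below. The split depended on scaling: with library totals alone, 895 genes lay above and 1850 below, with the median log2 fold change over the tested genes at 0.05 with the scaling used here (TMM) and -0.03 with totals. Small gaps therefore have no firm direction. At the edge of the rule, Vps25, a subunit of an endosomal sorting complex, lay just inside, with controls at 58.2 and 60.4 CPM and a nearest mutant at 60.4 CPM. Supt4a, a transcription elongation factor gene, lay just outside, with a control and a mutant library both at 52.4 CPM.

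The 2 genotypes did not sit equally far from control. Among the genes above, the p45-deficient mean was the farther one for 978 of 1293 (75.6%), and among those below for 1116 of 1411 (79.1%). The median size of the log2 fold change over the 2704 genes was 0.60 for p45-deficient and 0.34 for Tcf1-deficient cells; both comparisons use the same 2 controls. The library nearest to control was most often Tcf1-deficient replicate 2, for 660 genes above and 716 below, then Tcf1-deficient replicate 1 for 416 and 434. The p45-deficient libraries were nearest for 97 and 119 genes (replicate 1) and 120 and 142 genes (replicate 2).

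The widest gap above the controls, among genes with a mean of at least 5 CPM on the higher side, belonged to Lmcd1, a gene of LIM and cysteine-rich domains. Its level was 0.338 and 0.382 CPM in control, 27.4 and 8.23 CPM in p45-deficient and 3.52 and 2.66 CPM in Tcf1-deficient cells. The groups did not overlap, and the p45-deficient libraries were the highest (pooled log2 fold change 4.84 with an SE of 1.23; edgeR's adjusted p was 0.587 pooled and 0.0235 in the mean-of-mutants contrast). Adam19, a membrane metalloprotease, stood at 3.58 and 2.21 CPM in control, 406 and 382 CPM in p45-deficient and 56.2 and 19.9 CPM in Tcf1-deficient cells. Both genotypes were far above control, the p45-deficient libraries by the most (log2 fold change 6.23, SE 1.54). The 15 genes with the widest gaps also held Akr1c12, an aldo-keto reductase, Atp8a2, a phospholipid flippase, Ptpn13, a tyrosine phosphatase, and Dsp, the desmosomal plaque protein. For these 4 and for Lmcd1, Adam19 and Agfg1 the p45-deficient level exceeded the Tcf1-deficient one by edgeR's test, with log2 differences between Tcf1-deficient and p45-deficient cells from -1.55 for Agfg1 to -5.40 for Dsp.

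The other genes of the 15 lay closer to equal in the 2 mutants. Mllt4, which encodes afadin, a scaffold of cell adhesions, had 32.7 and 32.8 CPM in control, 209.8 and 164 CPM in p45-deficient and 91.8 and 131 CPM in Tcf1-deficient cells. The 2 controls were nearly the same, all 4 mutants were well above them, and this gene had the smallest DESeq2 adjusted p of all (3.93e-08), with 0.512 from edgeR. Itgae, the integrin chain CD103 that pairs with beta-7 and binds E-cadherin on epithelium, had 13.5 and 13.5 CPM in control, 65.8 and 39.4 CPM in p45-deficient and 62 and 35.7 CPM in Tcf1-deficient cells. The 2 genotypes covered the same range here (log2 difference -0.11, 95% interval -0.86 to 0.65, adjusted p = 0.852 by edgeR's test), and the pooled log2 fold change was 1.91 (SE 0.30). Rap1gap2, a regulator of the GTPase Rap1, had 9.57 and 10.2 CPM in control, 40.8 and 49.3 CPM in p45-deficient and 26.8 and 35.1 CPM in Tcf1-deficient cells. No mutant library came near either control (log2 fold change 1.94, SE 0.27). Myl4, a myosin light chain, had 3.14 and 3.63 CPM in control and 8.47 to 10.02 CPM in the 4 mutants, and Edaradd, a death-domain adaptor, had 14.2 and 17.8 CPM in control and 38.9 to 61.1 CPM in the mutants. Mcoln3, a lysosomal ion channel, and Slc45a3, a solute carrier, completed this group together with Maf, the bZIP factor of effector and gamma-delta T cells. Maf was the only one of the 15 not called in the mean-of-mutants contrast (adjusted p = 0.0588 by edgeR). It had 6.91 and 5.46 CPM in control, 20.3 and 15.5 CPM in p45-deficient and 51.2 and 20.02 CPM in Tcf1-deficient cells. Since the gap chose the 15 from the same libraries, their calls in that contrast are no separate support.

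**Figure D1:**
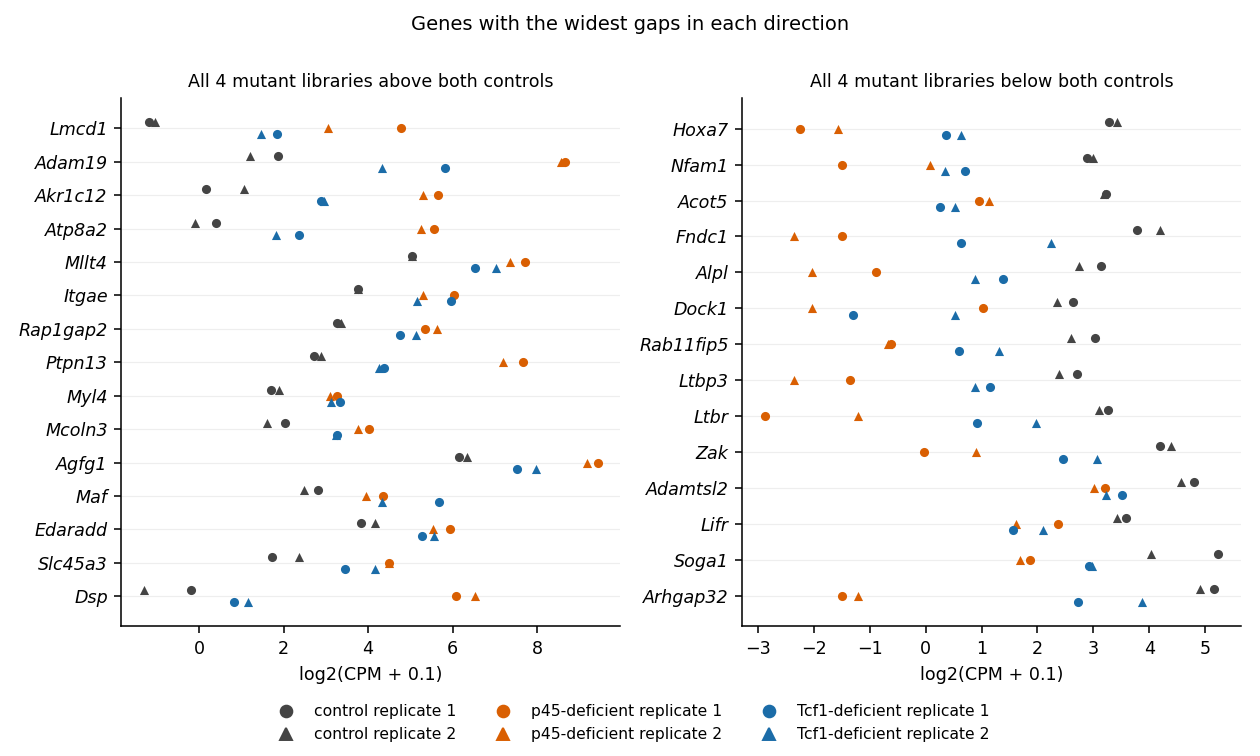
Level of 15 genes with the widest gaps above the controls (left) and 14 with wide gaps below them (right), as log2(CPM + 0.1) on the x axis, with 1 symbol per library and no averaging. In each row the 2 grey control symbols lie apart from the 4 coloured mutant symbols: for Lmcd1 the controls are at 0.338 and 0.382 CPM and the lowest mutant at 2.66 CPM, and for Hoxa7 the controls are at 9.62 and 10.6 CPM and the highest mutant at 1.46 CPM.

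Below the controls, Hoxa7, a homeobox gene of blood progenitors, had one of the widest gaps. It had 9.62 and 10.6 CPM in control, 0.11 and 0.239 CPM in p45-deficient and 1.19 and 1.46 CPM in Tcf1-deficient cells. The p45-deficient libraries held 3 and 5 counts, and the Tcf1-deficient ones lay between them and control (pooled log2 fold change -3.75 with an SE of 0.85; edgeR's adjusted p was 0.587 pooled and 0.00381 in the mean-of-mutants contrast). Nfam1, an ITAM-bearing receptor, had 7.3 and 7.9 CPM in control and 0.257 to 1.54 CPM in the 4 mutants. Acot5, a peroxisomal acyl-CoA thioesterase, differed from most of the list in that the Tcf1-deficient libraries were the lower ones. It had 9.23 and 9.05 CPM in control, 1.84 and 2.11 CPM in p45-deficient and 1.1 and 1.33 CPM in Tcf1-deficient cells. Its log2 fold change was -2.52 (SE 0.35), and the difference between the mutants was not called (log2 difference -0.69, 95% interval -1.47 to 0.08, adjusted p = 0.202 by edgeR).

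Ltbr, the lymphotoxin beta receptor, had 9.52 and 8.51 CPM in control, 0.0368 and 0.335 CPM in p45-deficient and 1.8 and 3.83 CPM in Tcf1-deficient cells. Lifr, a cytokine receptor of the leukaemia inhibitory factor family, had 11.9 and 10.6 CPM in control, and its mutants lay at similar levels of 5.07 and 2.97 CPM (p45-deficient) and 2.86 and 4.2 CPM (Tcf1-deficient). Adamtsl2, a secreted matrix protein, was likewise close in the 2 mutants, with 27.7 and 23.7 CPM in control, 9.15 and 7.95 CPM in p45-deficient and 11.3 and 9.24 CPM in Tcf1-deficient cells. Of the 15 genes below, all but Dock1 were called in the mean-of-mutants contrast. The gap chose these genes from the same libraries, so calls were likely from the start. Dock1, a Rac activator, had 6.09 and 5 CPM in control but 0.144 to 1.95 CPM in the mutants, with wide spread inside both genotypes (adjusted p = 0.152 by edgeR). The remaining genes were Fndc1, Alpl (the tissue-nonspecific alkaline phosphatase), Rab11fip5, Ltbp3 (a binding protein of latent TGF-beta), Zak (a stress kinase), Soga1 and Arhgap32, and in each the p45-deficient libraries were lower than the Tcf1-deficient ones. None of these 30 genes was called in Tcf1-deficient cells alone against control, where the smallest adjusted p by edgeR was 0.0762.

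The sequence upstream of the start site is shown for 3 of these genes: Lmcd1 and Hoxa7 because their gaps were among the widest in each direction, and Acot5 because it was the only one of the 23 wide-gap genes found in the promoter table whose upstream sequence held the motif searched. Each is 250 bases long, 5′ to 3′ on the strand of the gene and ends just before the first start site listed by RefSeq (GRCm38.p6). The positions are chr6:112273508-112273757 (plus strand) for Lmcd1, chr6:52218574-52218823 (minus strand) for Hoxa7 and chr12:84069074-84069323 (plus strand) for Acot5. Capitals mark a match to the letters CTTTGA, the core that TCF/LEF proteins are known to bind, on either strand; in Acot5 it is read on the minus strand and lies 145 bases before the start, and the other two sequences hold no match.
Lmcd1: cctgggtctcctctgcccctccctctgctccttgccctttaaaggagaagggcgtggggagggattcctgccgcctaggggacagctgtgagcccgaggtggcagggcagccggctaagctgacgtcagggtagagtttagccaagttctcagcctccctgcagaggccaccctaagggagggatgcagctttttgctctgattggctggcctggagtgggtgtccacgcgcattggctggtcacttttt
Hoxa7: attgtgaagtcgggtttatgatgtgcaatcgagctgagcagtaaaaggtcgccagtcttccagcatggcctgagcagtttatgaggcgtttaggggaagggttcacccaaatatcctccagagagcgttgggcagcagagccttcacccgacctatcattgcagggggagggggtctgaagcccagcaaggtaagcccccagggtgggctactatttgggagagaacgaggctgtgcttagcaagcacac
Acot5: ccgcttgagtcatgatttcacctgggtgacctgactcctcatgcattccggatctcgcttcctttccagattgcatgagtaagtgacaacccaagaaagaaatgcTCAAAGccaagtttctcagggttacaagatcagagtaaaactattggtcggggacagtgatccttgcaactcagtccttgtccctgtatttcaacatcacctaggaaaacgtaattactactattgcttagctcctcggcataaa
Over all tested genes with an entry, 10.9% of 9722 upstream sequences held the motif. The share was 10.4% of 968 genes above both controls, 10.4% of 1070 genes below both and 11.1% of 7684 genes with overlapping libraries; the 3 shares were close to that of all tested genes. Of the genes with a gap of at least 2-fold, 6 of 43 below (14.0%) and 1 of 27 above (3.7%) held it, and none of the 5 Hoxa genes with an entry did. A match describes letters only; it does not show binding.

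The test of Tcf1-deficient against p45-deficient cells, which the rule for choosing these genes did not use directly but which shares the mutant libraries with it, called 1348 of the 12939 genes (10.4%). It called 147 of the 1293 genes above (11.4%), 194 of the 1411 below (13.7%) and 1007 of the 10235 overlapping genes (9.84%). In all 147 calls above, the p45-deficient level was the higher one. In 192 of the 194 calls below, the p45-deficient level was the lower one. Where the 2 mutants shared a side and were called different from each other, it was thus the p45-deficient cells that lay farther from control; the 2 exceptions, named after their values had been seen, were Gm15446 and Hsdl1. The largest such differences below were those of Afap1l1, Msantd3, Arhgap32, Bcl11a and Zcchc3. Afap1l1, an actin-associated adaptor, had 9.81 and 10.5 CPM in control, 0 counts in both p45-deficient libraries and 7.61 and 6.03 CPM in Tcf1-deficient cells. Arhgap32, a GTPase-activating protein, had 35.5 and 30.0 CPM in control, 0.257 and 0.335 CPM in p45-deficient and 6.51 and 14.5 CPM in Tcf1-deficient cells. In both genes the Tcf1-deficient libraries stood between control and p45-deficient cells, nearer to control for Afap1l1. Among the largest differences above were those of Dsp, Rgma, Necab1 and Adam19. Dsp had 0.773 and 0.305 CPM in control, 68 and 92.3 CPM in p45-deficient and only 1.67 and 2.12 CPM in Tcf1-deficient cells. Necab1, a neuronal calcium-binding protein, had 0.725 and 1.03 CPM in control, 44.6 and 44.9 CPM in p45-deficient and 1.36 and 3.12 CPM in Tcf1-deficient cells. For these genes sharing a side means a large departure in one genotype and a small one in the other.

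Of 11 Hoxa cluster genes in the files, 6 had enough counts to be tested, and these 6 lay below both controls (10.9% of all tested genes did). Most were at or near 0 in the mutants and passed the filter on low counts through the controls, where they were higher, so the filter favours members that lie below and their share is no support for a direction of the cluster. These homeobox genes act in blood stem and progenitor cells and are silenced as T cells mature. Hoxa5 had 4.06 and 4.05 CPM in control, 0 in both p45-deficient libraries and 0.132 and 1.29 CPM in Tcf1-deficient cells. Hoxa3 had 2.03 and 1.34 CPM in control, 0.184 and 0 CPM in p45-deficient and 0 and 0.333 CPM in Tcf1-deficient cells. Hoxa9 had 0.822 and 0.763 CPM in control and was at 0 in 3 mutant libraries and at 0.0479 CPM in p45-deficient replicate 2. All mutant libraries were at or near 0 for these 3 genes apart from Tcf1-deficient replicate 2 for Hoxa5. Hoxa4 and Hoxa6 were lower still in control, at 1.74 and 1.72 CPM and at 0.87 and 0.573 CPM, and their mutants lay between 0 and 0.484 CPM. Hoxa7, given above, was the most abundant member and the one that the test between the mutants called. The 6 genes stayed below both controls under every scaling. Leaving out 1 library loosens the rule, so it cannot test whether they stay below. The mean-of-mutants contrast called 3 of them, and 1 with the replicate number as a block. Hoxa5, Hoxa4 and Hoxa6 were named after their values had been seen.

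Of 23 tested regulators of early progenitors, 9 lay below both controls (39.1%, beside 10.9% of all tested genes) and 3 above (13%, beside 9.99%). The median pooled log2 fold change was -0.89. The 9 include 4 Hoxa genes. The others below were Flt3, a cytokine receptor of multipotent progenitors, Tal1, Bcl11a, Mef2c and Cd34. Low members such as Flt3 (1.31 and 0.916 CPM in control, 0 to 0.287 CPM in the mutants) passed the filter on low counts through the controls. The filter thus favours such members, and neither the share nor the median is support for a direction of the list. Bcl11a, a zinc-finger factor of progenitors and B cells, had 20.3 and 16 CPM in control, 0.441 and 0 CPM in p45-deficient and 4.75 and 8.57 CPM in Tcf1-deficient cells. Mef2c, a MADS-box factor named after its values had been seen, had 4.88 and 4.35 CPM in control, 0.368 and 0.0479 CPM in p45-deficient and 0.967 and 0.749 CPM in Tcf1-deficient cells. In both genes the 2 genotypes were below control with no overlap, and the mean-of-mutants contrast called both (adjusted p = 0.0264 and 0.0256 by edgeR). The 3 members above were Lyl1, Lmo2 and Gata2, all at low levels. Gata2, a factor of stem cells and mast cells, had 0 counts in both controls and 0.221, 0.718, 0.264 and 0.499 CPM in the 4 mutant libraries. Kit, the stem cell factor receptor, did not lie on one side: it had 53.4 and 54.8 CPM in control and 5.55 and 6.65 CPM in p45-deficient cells, but 38.6 and 54.4 CPM in Tcf1-deficient cells. Fewer cells of an early type and less RNA per cell cannot be told apart in bulk libraries, here or for the other lists.

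**Figure D2:**
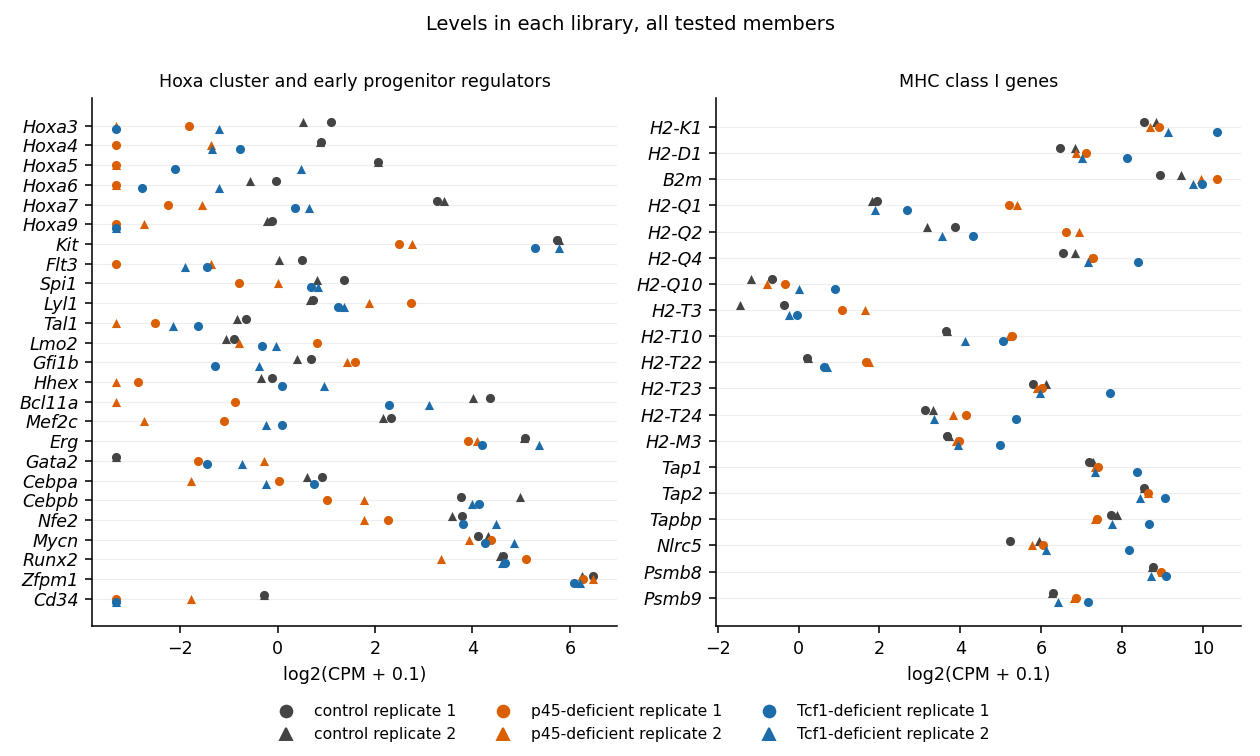
Level of every tested Hoxa and early progenitor gene (left) and every tested MHC class I gene (right) in each of the 6 libraries, as log2(CPM + 0.1). All 4 mutant symbols lie left of both controls for the 6 Hoxa genes, while the MHC class I genes differ in which mutant library is farthest from control: for Tap1 it is Tcf1-deficient replicate 1 (331 CPM, controls at 147 and 157 CPM) and for B2m it is p45-deficient replicate 1 (1313 CPM, controls at 494 and 705 CPM).

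Among 15 tested genes of the TCF/LEF and wider HMG-box family, 2 lay above both controls (13.3%) and 1 below (6.67%). Lef1, the closest relative of Tcf7 and a partner in binding the same sites, had 460.2 and 428 CPM in control, 969 and 1006 CPM in p45-deficient and 612 and 595 CPM in Tcf1-deficient cells. All mutants were higher, the p45-deficient ones by more (log2 difference -0.71, 95% interval -0.96 to -0.46, adjusted p = 0.0124 by edgeR). Sox5 was at 0.967 and 0.802 CPM in control and 1.96 to 2.79 CPM in the mutants. Sox12, a SoxC-family factor, was the member below, with 37.9 and 20.8 CPM in control, 1.07 and 2.59 CPM in p45-deficient and 8.57 and 11.9 CPM in Tcf1-deficient cells. Of 21 beta-catenin partners and Groucho/TLE genes, Tle4 lay above and Tle3 and Ctbp2 below. Tle3, an abundant corepressor, had 684 and 608 CPM in control, 281 and 316 CPM in p45-deficient and 538 and 540.5 CPM in Tcf1-deficient cells. Tle4, its relative, lay on the other side, with 31.9 and 35.9 CPM in control, 41.5 and 42.5 CPM in p45-deficient and 52.3 and 55.8 CPM in Tcf1-deficient cells. Of 14 tested Wnt targets, Lef1 was the only one above and 4 lay below (28.6%): Ccnd1, Nkd1, Znrf3 and Fzd7. Fzd7, a Wnt receptor, had 5.7 and 5.38 CPM in control, 2.24 and 1.87 CPM in p45-deficient and 4.26 and 3.7 CPM in Tcf1-deficient cells. Of these 4 genes none was called in the mean-of-mutants contrast.

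Among 24 Notch receptors and targets, 2 lay above (8.33%) and 5 below (20.8%). Dtx1, a Notch target that encodes an E3 ligase, had 147 and 139.8 CPM in control, 501 and 435 CPM in p45-deficient and 271 and 327 CPM in Tcf1-deficient cells. It was called in the mean-of-mutants contrast (log2 fold change 1.38 with an SE of 0.13, edgeR's adjusted p = 0.00605) and by DESeq2 in the pooled comparison (adjusted p = 7.06e-05), but not by edgeR there (adjusted p = 0.512). Trib2, a pseudokinase and Notch target, had 24.8 and 44 CPM in control, 122 and 113 CPM in p45-deficient and 86.5 and 66.2 CPM in Tcf1-deficient cells. Both genes kept a gap of over 1.5-fold, which none of the 5 members below did. Notch3, a receptor that marks this stage, had 1273 and 695 CPM in control and 508 to 687 CPM in the mutants, so that its lower control and its highest mutant almost touched. The other members below were Notch2, Dtx3, Maml3 and Mfng.

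Of 35 genes of T-lineage identity and the pre-T cell receptor, 6 lay above (17.1%) and 2 below (5.71%), and 27 overlapped. Cd27, a costimulatory receptor, had 133 and 149.5 CPM in control and 175 to 219 CPM in the mutants. Fyn, a Src-family kinase of the T cell receptor pathway, had 95.7 and 117 CPM in control, 228 and 218 CPM in p45-deficient and 261 and 131 CPM in Tcf1-deficient cells. Cd6, a surface scavenger receptor, had 64.5 and 80.7 CPM in control and 118 to 137 CPM in 3 mutants, but 302 CPM in Tcf1-deficient replicate 1, the library high in Cd4. None of the 35 was called in the mean-of-mutants contrast. Of 16 genes of V(D)J recombination and end joining, 2 lay above (Hmgb1 and Hmgb2) and 2 below (Dntt and Trp53bp1). Dntt, the terminal transferase that adds bases at V(D)J joints, had 1718 and 1723 CPM in control, 1265 and 1123 CPM in p45-deficient and 1066 and 1542 CPM in Tcf1-deficient cells. Its controls were nearly equal and all mutants were lower, by a log2 fold change of -0.46 (SE 0.16). On the list of 8 E protein and Id genes, which also holds Lyl1 and Tal1, Lyl1 lay above and Tal1 below. The E protein and Id genes themselves (Tcf3, Tcf4, Tcf12, Id1, Id2 and Id3) all overlapped. Of 18 genes of beta-selected and double-positive cells, Mns1 alone lay above.

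**Figure D3:**
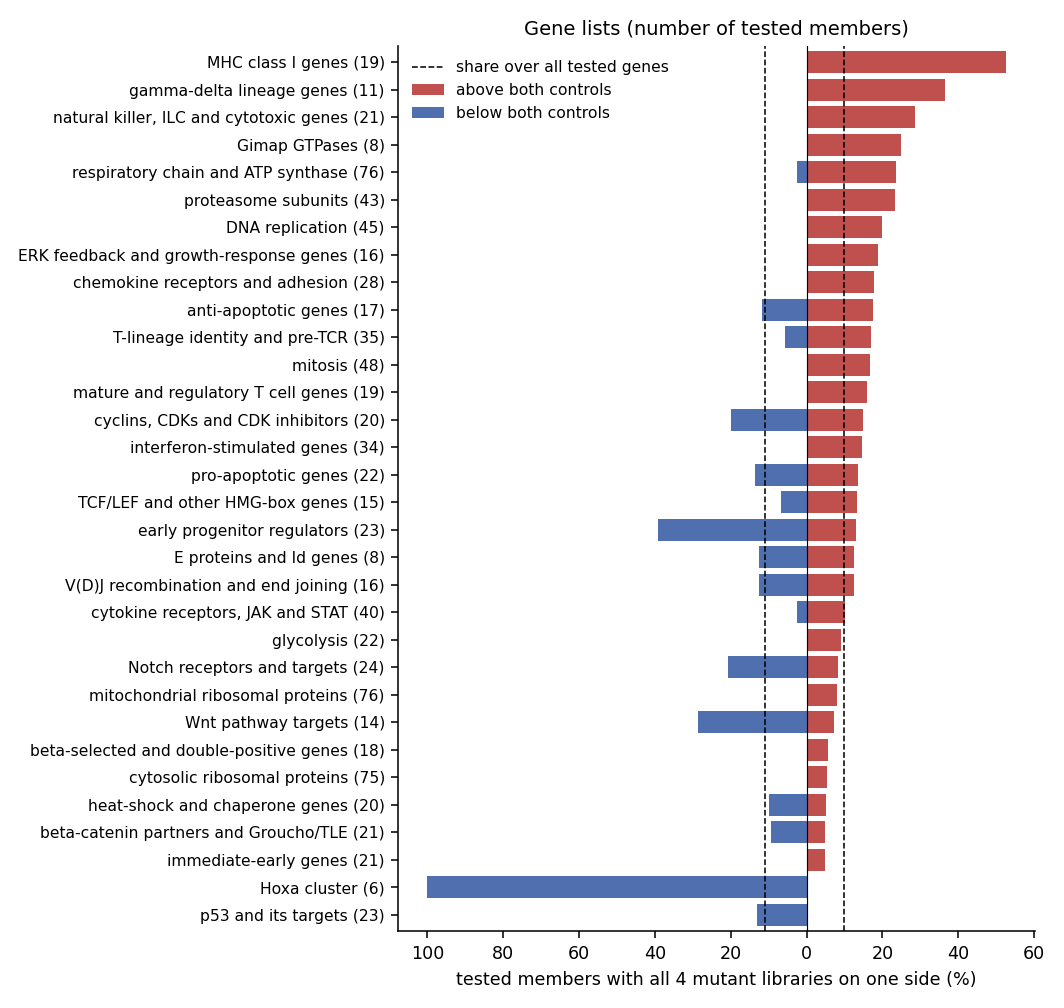
Share of the tested members of each of the 32 gene lists with all 4 mutant libraries above (red, to the right) or below (blue, to the left) both controls, in percent; the dashed lines give the shares over all tested genes, 9.99% and 10.9%. The Hoxa cluster has its 6 tested members below, most of which passed the filter on low counts through the controls, and the MHC class I list 52.6% of 19 members above, while most other lists lie closer to the lines.

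Genes of innate-like and effector lymphocytes were among those above. Of 11 tested gamma-delta lineage genes, 4 lay above (36.4%, beside 9.99% of all tested genes) and 0 below. Etv5, an ETS factor linked to T cell receptor strength, had 28.2 and 23.4 CPM in control, 59.9 and 108 CPM in p45-deficient and 62.2 and 81.7 CPM in Tcf1-deficient cells. The 2 genotypes overlapped each other and not control (pooled log2 fold change 1.60 with an SE of 0.28, edgeR's adjusted p = 0.512 and DESeq2's 7.06e-05). Cd163l1, a scavenger receptor of gamma-delta T cells that was named after its values had been seen, had 68.4 and 53 CPM in control, 383 and 249 CPM in p45-deficient and 110.4 and 114 CPM in Tcf1-deficient cells. Blk, a Src-family kinase, had 17.8 and 14.7 CPM in control, 37.7 and 35.8 CPM in p45-deficient and 23.9 and 22.5 CPM in Tcf1-deficient cells; Maf was the fourth. Etv5, Blk and Cd163l1 were called in the mean-of-mutants contrast. Of 16 ERK feedback and growth-response genes, Etv5, Dusp4 and Dusp10 lay above (18.8%) and 0 below. Dusp4, a MAP kinase phosphatase, had 24.2 and 16.3 CPM in control and 28.5 to 52.2 CPM in the mutants.

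Of 21 tested natural killer, innate lymphoid and cytotoxic genes, 6 lay above (28.6%, beside 9.99% of all tested genes) and 0 below. Only 1 kept a gap of 1.5-fold. Of 27 members in the files, 21 passed the filter on low counts. Low members such as Eomes (0.242 and 0.305 CPM in control, 4.57 CPM in Tcf1-deficient replicate 1) can pass it through the mutants. The filter can thus favour members that lie above, and the share is no support for a direction of the list. Gzma, a cytotoxic granule protease, had 123 and 136 CPM in control, 806 and 799 CPM in p45-deficient and 215 and 306 CPM in Tcf1-deficient cells. The 3 groups did not overlap, and Gzma was the only one of the 21 called in the mean-of-mutants contrast (log2 fold change 1.82 with an SE of 0.16, edgeR's adjusted p = 0.00541). Gzmb, another granule protease, had 2.13 and 3.24 CPM in control, 24.4 and 22.1 CPM in p45-deficient and 73.5 and 4.41 CPM in Tcf1-deficient cells. Its 2 Tcf1-deficient libraries lay far apart, with replicate 1 the highest of all 6 and replicate 2 close to control. Serpinb9, an inhibitor of granzyme B, had 6.28 and 7.14 CPM in control, 16.7 and 14.4 CPM in p45-deficient and 15.3 and 7.78 CPM in Tcf1-deficient cells. The summed level of 8 natural killer cell markers, which hold Gzmb, was 160 CPM in Tcf1-deficient replicate 1, 73.5 CPM of it Gzmb, and between 29.5 and 64.3 CPM in the other 5 libraries. Gzmb was likewise highest in that library, whereas Gzma and Serpinb9 were highest in p45-deficient cells, whose marker sums were 55.3 and 48.7 CPM beside 29.5 and 45.8 CPM in control. Gzmb itself made up 24.4 and 22.1 CPM of these p45-deficient sums and 2.13 and 3.24 CPM of the control sums. Nkg7, the largest other marker, had 25.4 and 21.4 CPM in p45-deficient cells and 24 and 38.5 CPM in control. Of 7 tested markers, 3 lay above both controls (Gzmb, Prf1 and Klrd1), 0 below, and 4 overlapped. Prf1 had 1.02 and 0.992 CPM in control, 1.4 and 1.2 CPM in p45-deficient and 5.93 and 1.37 CPM in Tcf1-deficient cells. Klrd1 had 0.483 and 0.534 CPM in control, 0.551 and 0.622 CPM in p45-deficient and 2.99 and 1.12 CPM in Tcf1-deficient cells. Ncr1, which defines these cells, was at 0 in 5 libraries and at 0.0483 CPM in control replicate 1, and the part of such cells in the Gzmb values was not tested.

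MHC class I genes, which present peptides to cytotoxic T cells, had 10 of 19 tested members above both controls (52.6%) and 0 below. With library totals alone 8 did. Leaving out Tcf1-deficient replicate 1 gave 10, but this loosens the rule, so the count could hardly fall. No member kept a gap of 1.5-fold. B2m, the light chain of all class I molecules, had 494 and 705 CPM in control, 1313 and 999.8 CPM in p45-deficient and 1011 and 865 CPM in Tcf1-deficient cells. H2-T10, a nonclassical class I gene, had 12.5 and 12.7 CPM in control, 38.4 and 37.1 CPM in p45-deficient and 33.3 and 17.4 CPM in Tcf1-deficient cells. Psmb9, an immunoproteasome subunit, had 78.2 and 77.2 CPM in control, 116 and 112 CPM in p45-deficient and 143 and 84.8 CPM in Tcf1-deficient cells. None of these 3 was called in the mean-of-mutants contrast (adjusted p = 0.0736, 0.0526 and 0.182 by edgeR). That contrast called 2 of the 19 higher, H2-Q1 and H2-Q2, named after their values had been seen, and 0 without either control or either p45-deficient library, but 4 without Tcf1-deficient replicate 1 and 13 without replicate 2. H2-Q1 had 3.72 and 3.4 CPM in control, 36.5 and 41.9 CPM in p45-deficient and 6.33 and 3.58 CPM in Tcf1-deficient cells, so a Tcf1-deficient library overlapped control. H2-Q2 had 14.4 and 9.01 CPM in control, 98.7 and 121 CPM in p45-deficient and 19.7 and 11.5 CPM in Tcf1-deficient cells, again with an overlap. The test between the mutants called the same 2 genes, higher in p45-deficient cells. The class I genes are near-identical copies of one another in part, and how the authors assigned shared reads is not given in the sources used here. Of 34 interferon-stimulated genes, 5 lay above (14.7%) and 0 below, and none was called. Usp18, a brake on interferon signalling, had 5.95 and 8.97 CPM in control, 18.2 and 18.8 CPM in p45-deficient and 33.9 and 14.8 CPM in Tcf1-deficient cells. Ifit2 had 17.8 and 14.8 CPM in control and 24.8 to 46.2 CPM in the mutants, and Isg15 had 10.6 and 13.5 CPM in control and 17.8 to 44.4 CPM in the mutants. For all 3 the highest library was Tcf1-deficient replicate 1. The same library was the highest for Gimap1 and Gimap5, the 2 of 8 Gimap GTPase genes that lay above, and for Klf2, a factor of mature T cell traffic (10.1 and 30.5 CPM in control, 38 to 46.4 CPM in 3 mutants, 129 CPM in this one). Cd4 was high in this library too, as given above, and its part in these values was not tested. Klf2 was the only one of 21 immediate-early genes on either side, and with Ikzf2 and Pdcd1 it made up the 3 of 19 mature and regulatory T cell genes above.

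Of 28 tested chemokine receptors and adhesion genes, 5 lay above (17.9%) and 0 below. Besides Itgae these included Itgav, an integrin chain of vitronectin receptors, with 15.7 and 19.5 CPM in control and 27 to 42.7 CPM in the mutants. Itga6, a laminin-binding chain, had 67.7 and 65.3 CPM in control, 164 and 141 CPM in p45-deficient and only 78.4 and 76.7 CPM in Tcf1-deficient cells. Of 40 cytokine receptor, JAK and STAT genes, 4 lay above (10%) and 1, Stat5a, below. Socs2, an inhibitor of cytokine signalling, had 4.45 and 7.94 CPM in control, 40.7 and 33.8 CPM in p45-deficient and 19.4 and 9.74 CPM in Tcf1-deficient cells. Il9r had 8.27 and 5.34 CPM in control, 24.1 and 34.5 CPM in p45-deficient and 12.6 and 9.82 CPM in Tcf1-deficient cells. Both genes were lower in Tcf1-deficient than in p45-deficient libraries, and the test between the mutants called Il9r (adjusted p = 0.0292 by edgeR) but not Socs2 (adjusted p = 0.0663).

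Death genes lay on both sides, as tested genes did in general (9.99% above and 10.9% below). Of 22 tested pro-apoptotic genes, 3 lay above and 3 below (13.6% each), so these few members do not set the list apart. Bmf, a BH3-only protein that binds Bcl2-family survival proteins, had 71.4 and 85.8 CPM in control, 40.8 and 41.7 CPM in p45-deficient and 38.3 and 49.4 CPM in Tcf1-deficient cells. The log2 difference between the 2 genotypes had a 95% interval of -0.29 to 0.48, and all 4 mutant libraries were lower than both controls (pooled log2 fold change -0.89 with an SE of 0.15, edgeR's adjusted p = 0.512 and DESeq2's 0.000707). Bbc3, the p53 target Puma, had 15.2 and 9.92 CPM in control and 5.44 to 8.75 CPM in the mutants. Casp8, the initiator caspase of death receptors, had 59.8 and 70.7 CPM in control, 130.0 and 119 CPM in p45-deficient and 113 and 84.9 CPM in Tcf1-deficient cells, and lay above, as did Apaf1. Of 17 anti-apoptotic genes, 3 lay above (17.6%) and 2 below (11.8%). Birc6 had 614 and 604 CPM in control and 433 to 508 CPM in the mutants, and the cochaperone Bag3 had 7.06 and 10.6 CPM in control and 1.53 to 4.44 CPM in the mutants. Birc5, which acts chiefly in mitosis, lay above. Of 23 tested genes of p53 and its targets, 0 lay above and 3 below (13%): Bbc3, Phlda3 and Tnfrsf10b. Of 20 heat-shock and chaperone genes, 1 lay above and 2 below (10%).

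Proliferation genes shared a side in part. Of 48 mitosis genes 8 lay above (16.7%) and of 45 DNA replication genes 9 (20%), beside 9.99% of all tested genes, and 0 of either list below. Single libraries limited these counts, though leaving out a library loosens the rule for all genes. Without Tcf1-deficient replicate 1, 42 mitosis genes (87.5%) and 29 replication genes (64.4%) lay above, beside 20.2% of all tested genes. Without control replicate 1, 22 (45.8%) and 23 (51.1%) lay above, beside 17.5%. With library totals 5 of each list did. The test between the mutants called 36 of the 48 mitosis genes and 14 of the 45 replication genes, all higher in p45-deficient cells, beside 10.4% of all genes. The median log2 fold change of the mitosis list was 0.98 in p45-deficient and 0.14 in Tcf1-deficient cells, each against the same controls. Cenpa, the centromeric histone, had 49.4 and 44.9 CPM in control, 110.2 and 118 CPM in p45-deficient and 64.1 and 63.6 CPM in Tcf1-deficient cells. Rpa2, a subunit of the single-strand DNA-binding complex, had 91.7 and 95.5 CPM in control, 127 and 145 CPM in p45-deficient and 113 and 109.8 CPM in Tcf1-deficient cells. In both genes the Tcf1-deficient libraries were a little above control and the p45-deficient ones well above. Of 20 cyclins, CDKs and inhibitors, 3 lay above and 4 below. Cdk6, a G1 kinase, was below, with 392 and 376 CPM in control, 158 and 166 CPM in p45-deficient and 227 and 339 CPM in Tcf1-deficient cells. Rb1, the retinoblastoma gene, was above, with 43.8 and 44.6 CPM in control and 51.4 to 72.6 CPM in the mutants.

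Housekeeping lists differed from one another. Above both controls, beside 9.99% of all tested genes, lay 18 of 76 respiratory chain and ATP synthase genes (23.7%), 10 of 43 proteasome subunits (23.3%), 6 of 76 mitochondrial ribosomal proteins (7.89%), 4 of 75 cytosolic ribosomal proteins (5.33%) and 2 of 22 glycolysis genes (9.09%). Below lay 2 respiratory chain genes and none of the other 4 lists. The median pooled log2 fold change was 0.24 for the respiratory chain and 0.27 for the proteasome, beside 0.05 over all genes, and these values are of the size that scaling moves. Ndufc1, a complex I subunit, had 24.4 and 26.8 CPM in control, 39.4 and 43.5 CPM in p45-deficient and 33 and 30.1 CPM in Tcf1-deficient cells. Psma7, a core proteasome subunit, had 147 and 151 CPM in control, 221 and 227 CPM in p45-deficient and 179 and 165 CPM in Tcf1-deficient cells. In both, the Tcf1-deficient libraries lay between control and p45-deficient cells. In the mean-of-mutants contrast 0 respiratory chain genes and 1 proteasome gene were called.

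Because the mutations lie in Tcf7, its neighbours were read separately. Of the 40 nearest genes in the reference order that the files list, 20 on each side, 26 were tested, and 5 of these lay on one side (19.2%, beside 20.9% of all tested genes). Hnrnpab and Sar1b lay above, and D930048N14Rik, Sec24a and Jade2 below. Sar1b, a GTPase of vesicle coats, had 31.4 and 33.4 CPM in control and 37.7 to 54.1 CPM in the mutants, and Jade2 had 187 and 164 CPM in control and 109 to 159 CPM in the mutants. On chromosome 11 as a whole, which carries Tcf7, 9.71% of 1030 tested genes lay above and 13.9% below.

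Markers of other cell types were summed in each library. For 7 of 11 erythroid marker genes, globins among them, no library held a count. The 11 summed to 6.67 and 3.59 CPM in control, 10.9 and 7.9 CPM in p45-deficient and 7.65 and 6.33 CPM in Tcf1-deficient cells. Of 4 tested members, 3 overlapped and 1, Gata1, lay above, with 3.53 and 1.98 CPM in control and 4.95 to 6.25 CPM in the mutants. The summed level of 14 B cell markers was 91 and 48.8 CPM in control, 31.4 and 27.8 CPM in p45-deficient and 94 and 38.7 CPM in Tcf1-deficient cells. The summed level of 16 myeloid markers was 50.3 and 41.7 CPM in control, 23.2 and 25.6 CPM in p45-deficient and 58.2 and 40.4 CPM in Tcf1-deficient cells. Dendritic cell markers, a list that holds Flt3, summed to 712 and 616 CPM in control and 462 to 532 CPM in the mutants. Most of that sum was Ly6d, Bst2 and Tcf4, and of 15 tested members 4 lay below both controls and 11 overlapped. Ly6d, Flt3 and H2-DMb1 were among those below, and none lay above. H2-DMb1 had 4.06 and 3.93 CPM in control, 1.54 and 1.1 CPM in p45-deficient and 3.08 and 2.46 CPM in Tcf1-deficient cells. H2-Ab1 overlapped, with 34.1 and 16.9 CPM in control, 5.18 and 6.41 CPM in p45-deficient and 19.7 and 5.66 CPM in Tcf1-deficient cells. Irf8 was at 16.9 and 16.1 CPM in control and at 36.8 CPM in Tcf1-deficient replicate 1. Ciita was at 4.25 and 1.49 CPM in control and at 5.36 CPM in that library. Like the early progenitor genes that lay below, the sum was lower in all 4 mutant libraries than in both controls. Ly6d, which is also on the T-lineage identity list, made up 345 and 334 CPM of the control sums. It made up 306 and 316 CPM in p45-deficient and 193 and 260 CPM in Tcf1-deficient cells. The sum was lowest in Tcf1-deficient replicate 2 (462 CPM), while Bcl11a was lowest in p45-deficient cells. Since Ly6d, Bst2 and Tcf4 dominate the sum, its level and order say little on dendritic cells. The part of dendritic cells in the early progenitor genes was not tested. Thymic stroma markers summed to 169 and 171 CPM in control and 173 to 221 CPM in the mutants. Markers of DN3 cells themselves summed to 5045 to 7796 CPM and double-positive markers to 823 to 999.2 CPM, and for both lists mutants and controls overlapped in the sum. Among the double-positive markers, Cd4 in Tcf1-deficient replicate 1 stood apart from the other 5 libraries, as given above.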

How the data were processed

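RNA-seq of sorted mouse DN3 thymocytes was read from 6 libraries, grouped by genotype label into control, p45-deficient and Tcf1-deficient pairs. The authors deposited 1 raw count per gene symbol and library (24015 symbols), without normalisation. The submitters' processing notes name TopHat2, featureCounts 1.5.0-p3, DESeq2 3.4 and the build mm9, with no role or order; for the annotation, the strand setting and the handling of shared reads the sources used here give nothing, so overlapping, antisense and near-identical genes may not be separated.

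Tests used edgeR 4.0.16 (R 4.3.3) after filterByExpr (12939 genes) and TMM scaling, by robust quasi-likelihood F tests, two-sided, with Benjamini-Hochberg adjustment at 0.05. The main model had 1 mean for the 4 mutant and 1 for the 2 control libraries (4 residual degrees of freedom). The 3-group model (3 residual degrees of freedom) gave the mean-of-mutants contrast, the comparison of each mutant with control and the test between the mutants. DESeq2 1.42.0 was an alternative. Gaps use log2 CPM with a prior count of 0.5. Libraries of totals from 19640524 to 28107031 were compared within groups before use. The pooled and the 3-group edgeR models were tested on simulated data.

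Named genes are Tcf7, the 15 widest gaps in each direction with at least 5 CPM on the higher side, from each list the 3 one-sided members (or fewer) of smallest pooled p, the 5 largest differences between the mutants in each direction, neighbours of Tcf7 within 20 places, and genes at the edge of the rule; other members, given to complete a short list, were named after their values had been seen. Some genes that this rule names are not reported here. The members, the 32 gene lists (884 symbols in the files) and the 8 marker lists were chosen with earlier results of these data known. Promoters come from RefSeq (GRCm38.p6), first-listed start per symbol; 12203 tested symbols matched that reference, another build than the files'. Alternatives were library totals, upper-quartile and DESeq2 scaling, other filters, a least gap of 1.5-fold, a replicate block and leaving out each library.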

Additional observations from a re-analysis of the deposited data

Results flagged for a closer look

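For the genes named here, Tcf7 among them, edgeR's quasi-likelihood test called the log2 difference of Tcf1-deficient minus p45-deficient cells, so the 2 genotypes of the mutant side departed from control by unequal amounts. The values below are such log2 differences. Tcf7 differed by -1.28. Among genes above both controls the differences were -2.53 for Lmcd1, -3.37 for Adam19, -2.59 for Akr1c12, -3.33 for Atp8a2, -3.14 for Ptpn13, -1.55 for Agfg1, -5.40 for Dsp, -4.72 for Rgma and -4.31 for Necab1. Among genes below both controls they were 2.93 for Hoxa7, 4.01 for Fndc1, 2.79 for Alpl, 1.80 for Rab11fip5, 3.22 for Ltbp3, 3.99 for Ltbr, 2.37 for Zak, 5.14 for Arhgap32, 5.85 for Msantd3, 4.76 for Bcl11a and 4.42 for Zcchc3. The fitted value of Afap1l1, 10.3, depends on the prior count, since both p45-deficient libraries had 0 counts, and is no measure of size. Except for Tcf7, which lay on no side, each of these genes had p45-deficient libraries farther from control than Tcf1-deficient ones. Rgma had unequal p45-deficient libraries, at 12.2 and 1.58 CPM.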

How the results depend on the processing

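The pooled comparison gave 0 calls in both directions by edgeR under library totals, upper quartile, no filter, 1 CPM in 2 libraries, the replicate block and without each of the 6 libraries in turn. The 3-group contrast gave 134 higher and 220 lower, and DESeq2 67 higher and 36 lower. The cause of the gap between edgeR and DESeq2 was not tested.

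The mean-of-mutants contrast, whose alternatives were chosen after seeing the data, gave 273 higher and 484 lower with no filter. It ranged from 0 to 958 higher and from 0 to 819 lower when 1 library was left out; where an arm keeps 1 library, that library is assumed to vary like the others. The test between the mutants, 654 higher and 694 lower in Tcf1-deficient cells, ranged from 51 to 1659 higher and from 48 to 1726 lower in the same way, lowest without p45-deficient replicate 1 and highest without Tcf1-deficient replicate 2.

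Replicate numbers were checked for pairing by correlating the difference between replicates 1 and 2 between groups, not the libraries themselves. The r was -0.01, -0.05 and -0.02, which gave no sign that same-numbered libraries are paired. With the replicate block the mean-of-mutants contrast gave 96 higher and 140 lower, and the test between the mutants 466 higher and 454 lower.

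Genes on one side numbered 88 above and 153 below with a least gap of 1.5-fold. Leaving out 1 library loosens the condition and gave 1428 to 2996 above and 1552 to 2818 below. Pooled edgeR called no named gene, so none could lose a call; of 1616 values of the named genes under its alternatives, 88 passed the threshold and 0 reversed. In the mean-of-mutants contrast, 53 named genes were called, and of the 6 fits that leave out 1 library 26 of these genes were called in 2, 3 in 3 and 24 in 4; Adam19, Hoxa9 and Lef1 were called in 2 and Etv5 in 3. Depth limits genes near 3 counts per library, such as Hoxa9 and Gata2.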

Other observations

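The opposite arrangement, with the 2 mutant genotypes on different sides of both controls, was also present. In 388 genes both p45-deficient libraries lay above and both Tcf1-deficient libraries below the 2 controls, and in 310 genes the order was reversed. The genes named here were picked with their levels in view, as a description. Myh10, a nonmuscle myosin heavy chain, had 26.2 and 20.7 CPM in control, 76.7 and 61.8 CPM in p45-deficient and 11.9 and 9.24 CPM in Tcf1-deficient cells. P2rx1, an ATP-gated channel, had 8.41 and 5.95 CPM in control, 36.9 and 28.3 CPM in p45-deficient and 2.86 and 3.29 CPM in Tcf1-deficient cells. Both genes were highest without the long isoforms and lowest in the Tcf1-deficient cells.

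In the reverse order, Scin, an actin-severing protein, had 49.3 and 68.1 CPM in control, 21.6 and 17.3 CPM in p45-deficient and 133 and 175 CPM in Tcf1-deficient cells. Smad7, an inhibitor of TGF-beta signalling, had 29.2 and 45.4 CPM in control, 17.1 and 15.7 CPM in p45-deficient and 93.2 and 46.4 CPM in Tcf1-deficient cells, with 1 Tcf1-deficient library close to a control. In the pooled comparison Scin had a log2 fold change of 0.56 and Myh10 of 0.77, and neither was called by edgeR.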
